A study of Mus musculus with 5 samples.

Results

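Integrins and laminins were examined in luminal cells sorted from mouse mammary glands, with bulk RNA-seq of 5 libraries. The genes were listed by name, with earlier results of these data known. Levels are in FPKM (fragments per kilobase of transcript, scaled to the mapped fragments of each library). Every listed integrin or laminin chain gene with a row in the deposited FPKM table was taken, whatever its level. This gave 35 of 24319 genes, namely 17 integrin α chains, 8 integrin β chains and 10 laminin chains. For comparison they were divided into 9 epithelial integrins, 7 leukocyte integrins, 9 other integrins and the 10 laminin chains.

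The luminal cells had been sorted as live CD24-high, CD29-low cells, and CD29 is the protein made from *Itgb1*, so the product of a member was itself part of the sorting gate. By GEO's labels, replicates 1, 2 and 3 are wild type and replicates 4 and 5 are *Brca1* knockout, all of mixed strain, whereas the study's text counts all of its bulk luminal samples as BRCA1-deficient. According to the methods, floxed *Brca1* was deleted by Cre driven by the MMTV promoter, which is active in mammary epithelium, and the sort named no reporter for cells in which deletion had taken place. The mice were virgin or pregnant females 3 to 4 months old, but the stage of each bulk library is not given in the sources used here, and the extraction text in the labels speaks of frozen tumors.

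Integrins are heterodimers of an α and a β chain that tie the cytoskeleton to the extracellular matrix or to other cells, and laminins are trimers of an α, a β and a γ chain that form the backbone of the basement membrane. In mammary epithelium, laminin receptors built from *Itga3* or *Itga6* with *Itgb1*, and from *Itga6* with *Itgb4* in hemidesmosomes, anchor cells to the basement membrane and take part in polarity and milk protein expression. The integrins of *Itgb2* and *Itgb7* are instead used by white blood cells to adhere to vessel walls, tissue cells and one another.

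The targeted gene and the cell type were checked first. *Brca1* was at 1.30, 1.32 and 0.234 FPKM in replicates 1, 2 and 3 and at 1.198 and 1.34 FPKM in replicates 4 and 5, so the libraries labelled *Brca1* knockout were not the low ones. Whether these reads cover the deleted exons cannot be read from a value per gene, and the labels are used below only as labels. The luminal keratin gene *Krt8* was at 2483, 2240 and 3653 FPKM in replicates 1, 2 and 3 and at 2421 and 2332 FPKM in replicates 4 and 5. The basal keratin gene *Krt14* was at 48.2, 104 and 3.65 FPKM in replicates 1, 2 and 3 and at 27.7 and 45.5 FPKM in the others, and the basal transcription factor gene *Trp63* was at most 0.311 FPKM. *Krt8* thus stood far above *Krt14* and *Trp63* in every library.

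Libraries differed in more than their label. Over the 11481 genes averaging 1 FPKM or more, replicate 3 correlated with the others at a Pearson r across genes of 0.805 to 0.829, against 0.886 to 0.935 among the other 4 libraries. The genes of hormone-sensing mature luminal cells had a summed level of 508 FPKM in replicate 3 and of 20.3 to 45.2 FPKM elsewhere. *Areg*, an epidermal growth factor receptor ligand, was at 228.6 FPKM in replicate 3 and at 3.58 to 13.04 FPKM in the other libraries, where *Ly6a* was the most abundant of these genes at 7.22 to 28.2 FPKM. The immune list summed to 278 FPKM in replicate 2 and 60.4 FPKM in replicate 3, against 4.60, 2.01 and 7.37 FPKM in replicates 1, 4 and 5. The fibroblast list summed to 109 and 86.0 FPKM in replicates 2 and 3, against 2.997, 3.86 and 12.6 FPKM in replicates 1, 4 and 5. The part of these differences in the results below was not tested, and results are given with each library in view. In bulk samples fewer cells of a type and less RNA per cell cannot be told apart.

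No read counts come with the table, but the spacing of low FPKM values gave approximate depths of 6180000, 12900000 and 30400000 fragments in replicates 1, 2 and 3 and of 6350000 and 21300000 in replicates 4 and 5. Between 52.7% and 58.8% of the values used lay within 0.15 of a whole number of fragments, so these depths are rough. Low values are therefore least precise in replicates 1 and 4.

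Across the 35 genes the levels ran from *Itgb1* at the top to chains that were hardly detected. A mean of at least 1 FPKM was reached by 22 of 35 members, against 47.2% of all genes, and at least 1 FPKM in each library by 17 of 35, against 40.6% of all genes. All 9 epithelial integrins were at 1 FPKM or more in each library, as were 6 of 10 laminin chains and 2 of 9 other integrins, but 0 of 7 leukocyte integrins were. In log2(FPKM + 1), the list medians averaged 4.28 ± 0.37 for epithelial integrins, 2.41 ± 0.38 for laminin chains, 0.70 ± 0.21 for other integrins and 0.60 ± 0.67 for leukocyte integrins (SD, n = 5 libraries), beside 0.59 ± 0.08 for all genes and 3.28 ± 0.10 for genes averaging 1 FPKM or more. Most neighbours in the order of mean level could not be told apart. Only between *Itga3* and *Lamc1*, ranks 8 and 9, was the step (0.45 ± 0.25 in log2(FPKM + 1), SD, n = 5) larger than the SD of the difference.

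**Figure D1:**
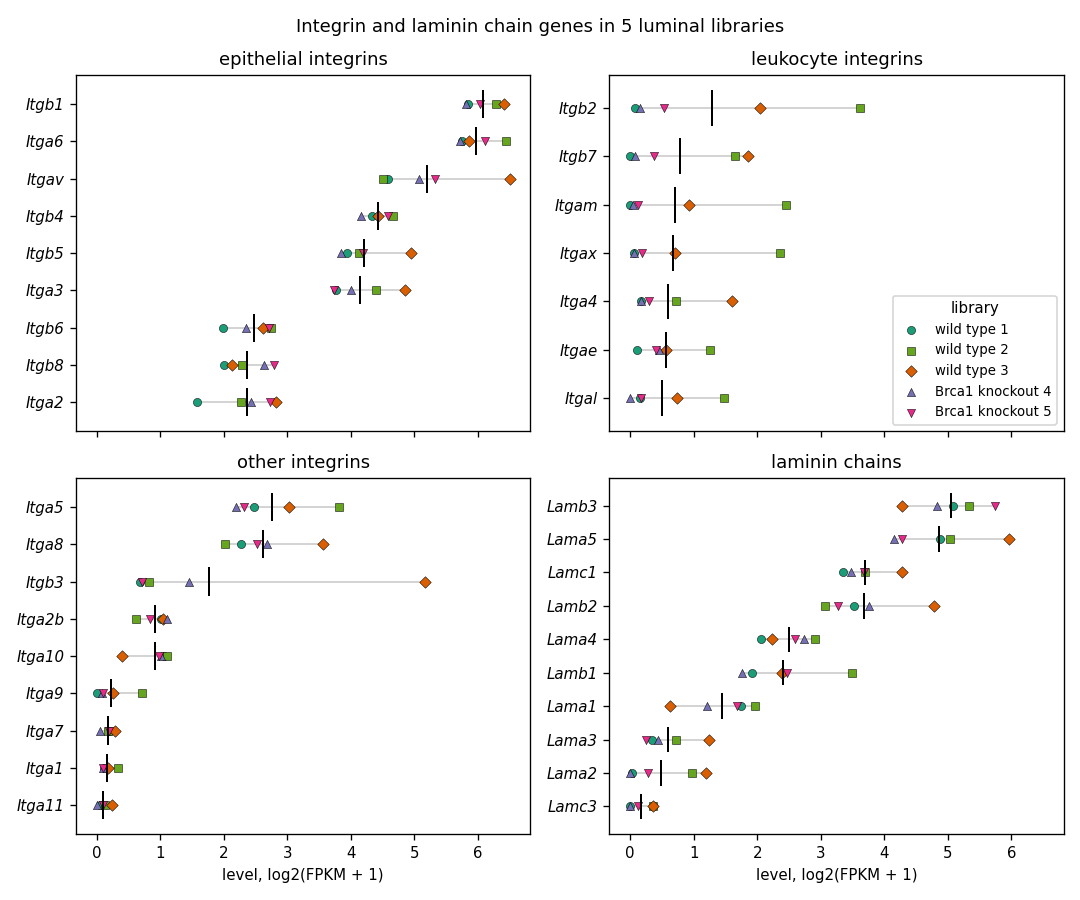
Level of each member in log2(FPKM + 1) on the horizontal axis, with a symbol for each of the 5 libraries, a black bar at the mean and members grouped by list. The epithelial integrins lie mostly to the right of the leukocyte integrins, for which replicates 2 and 3 lie above replicates 1, 4 and 5.

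*Itgb1* and *Itga6*, which together form a laminin receptor, had the highest mean levels of the epithelial group, and *Itgav* came next. *Itgb1* (ENSMUSG00000025809, mm10 chr8:128685654-128733200, plus strand), the β chain shared by most matrix-binding integrins, was at 56.2, 76.9 and 84.0 FPKM in replicates 1, 2 and 3 and at 55.0 and 64.5 FPKM in replicates 4 and 5. *Itga6* (ENSMUSG00000027111, chr2:71745616-71858416, plus strand), a laminin-binding α chain, was at 52.7, 85.9 and 56.8 FPKM and at 51.8 and 67.9 FPKM. Replicate 2 was highest for *Itga6* and replicate 3 for *Itgb1*, and for both genes the values of the 2 labels overlapped.

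*Itgb4* (ENSMUSG00000020758, chr11:115974709-116008412, plus strand), whose long cytoplasmic tail binds plectin in hemidesmosomes, was at 19.2, 24.3 and 20.5 FPKM in replicates 1, 2 and 3 and at 16.8 and 22.9 FPKM in replicates 4 and 5. It was the steadiest of the abundant members, with a mean of 4.43 ± 0.20 in log2(FPKM + 1). *Itga6*, the only α chain that *Itgb4* pairs with, lay above it by 1.54 ± 0.15 in log2(FPKM + 1) and in 5 of 5 libraries. *Itga3*, the other main laminin-binding α chain, was at 12.7, 20.0 and 27.9 FPKM and at 15.1 and 12.3 FPKM, highest in replicate 3. *Itga2*, a collagen-binding α chain, was lower at 1.98, 3.81 and 6.06 FPKM and at 4.40 and 5.64 FPKM. *Itga3* exceeded *Itga2* by 1.79 ± 0.50 in 5 of 5 libraries.

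The integrins of *Itgav* recognise RGD motifs in fibronectin, vitronectin and latent TGF-β. *Itgav* itself varied most of the epithelial integrins between libraries, with an SD of 0.80 in log2(FPKM + 1), while *Itgb5*, *Itgb6* and *Itgb8* had SDs of 0.32 to 0.43. *Itgav* (ENSMUSG00000027087, chr2:83724397-83806916, plus strand), the α chain common to this group, was at 23.1, 21.6 and 89.5 FPKM in replicates 1, 2 and 3 and at 32.6 and 39.0 FPKM in replicates 4 and 5. Replicate 3 was far above the other libraries, and replicates 1 and 2, with the same label, were the lowest. *Itgb5*, a vitronectin receptor β chain, was at 14.4, 16.5 and 29.7 FPKM and at 13.4 and 17.3 FPKM, again highest in replicate 3.

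*Itgb6* and *Itgb8*, β chains whose integrins with *Itgav* bind and activate latent TGF-β, were low but present in every library. *Itgb6* was at 2.95, 5.70 and 5.14 FPKM in replicates 1, 2 and 3 and at 4.10 and 5.54 FPKM in replicates 4 and 5. *Itgb8* (ENSMUSG00000025321, chr12:119158022-119238802, minus strand) was at 3.004, 3.89 and 3.38 FPKM and at 5.18 and 5.91 FPKM, so both libraries labelled *Brca1* knockout lay above all 3 labelled wild type. *Itgb6* and *Itgb8* differed from each other by only 0.11 ± 0.34 in log2(FPKM + 1), with *Itgb6* higher in 2 of 5 libraries.

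Among the other integrins, *Itga5*, the fibronectin receptor α chain, was at 4.57, 13.1 and 7.13 FPKM in replicates 1, 2 and 3 and at 3.57 and 3.99 FPKM in replicates 4 and 5. It was highest in replicate 2, and both libraries labelled *Brca1* knockout were lowest. *Itga8*, an RGD-binding α chain that pairs with *Itgb1*, was at 3.84, 3.05 and 10.8 FPKM and at 5.40 and 4.74 FPKM, highest in replicate 3. The collagen receptor chains *Itga1* and *Itga11*, the laminin receptor chain *Itga7* and the chain *Itga9* stayed at or below 0.632 FPKM in every library.

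The integrin β chains were dominated by *Itgb1*. Of the summed FPKM of the 8 β chains, *Itgb1* took 54.1% ± 4.90, *Itgb4* 17.0% ± 3.49 and *Itgb5* 14.3% ± 1.68 (SD, n = 5). Of the 17 α chains, *Itga6* took 45.4% ± 10.4, *Itgav* 27.3% ± 11.03 and *Itga3* 12.1% ± 1.81. Replicate 3 had the lowest share of *Itga6*, 27.7%, and the highest share of *Itgav*, 43.6%. These are shares of RNA per unit length and say nothing of which proteins were paired at the surface.

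**Figure D2:**
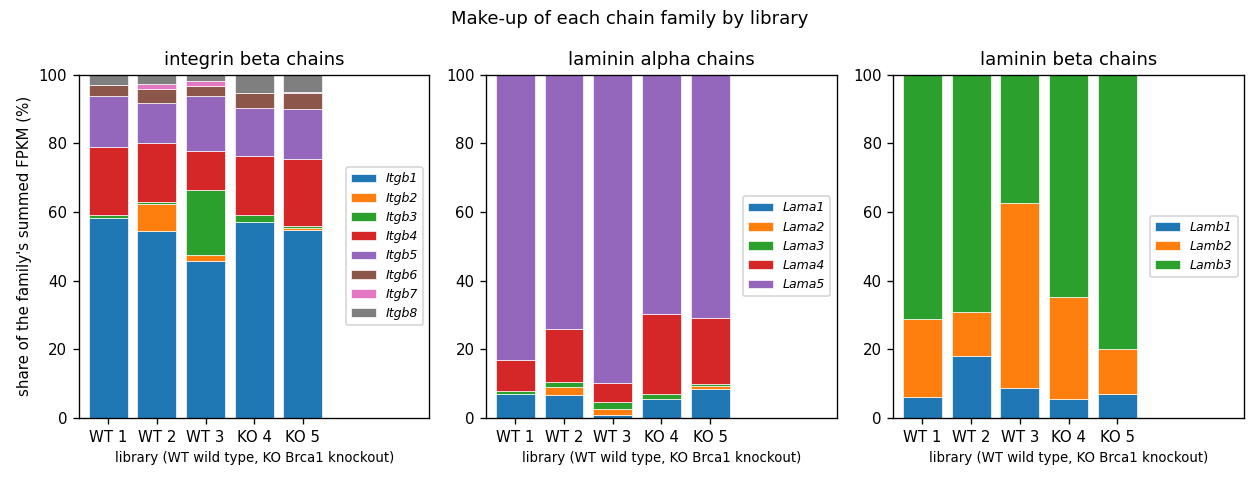
Stacked bars from 0 to 100% give each chain's share of the summed FPKM of its family (integrin β, laminin α, laminin β) in each of the 5 libraries, with WT for the wild type label and KO for *Brca1* knockout. *Itgb1* and *Lama5* hold the largest share of their family in every library, and replicate 3 differs by an *Itgb3* share of 19.0% and a *Lamb2* share of 53.9%.

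The leukocyte integrins were at or below 0.446 FPKM in replicates 1, 4 and 5 and at 0.474 to 11.2 FPKM in replicates 2 and 3. *Itgb2* (ENSMUSG00000000290, chr10:77530252-77565708, plus strand), the β chain of the leukocyte-specific integrins, was at 0.0564, 11.2 and 3.12 FPKM in replicates 1, 2 and 3 and at 0.112 and 0.446 FPKM in replicates 4 and 5. *Itgam* (ENSMUSG00000030786, chr7:128062640-128118491, plus strand), the α chain of the complement receptor of myeloid cells, was at 0, 4.47 and 0.892 FPKM and at 0.0332 and 0.0946 FPKM. *Itgb7*, the β chain of gut-homing and intraepithelial lymphocytes, was at 0, 2.13 and 2.62 FPKM and at 0.0601 and 0.302 FPKM.

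For each of the 7 leukocyte integrins, replicates 2 and 3 were the highest pair of libraries, where this held for 14.2% of all genes above 0 in any library and for 9.55% of those averaging 1 FPKM or more. Only *Itgb2*, *Itgam* and *Itgb7* averaged 1 FPKM or more, and they did so through replicates 2 and 3. *Itgax*, a partner of *Itgb2* used as a dendritic cell and macrophage marker, was at 4.13 FPKM in replicate 2 and 0.638 FPKM in replicate 3, and at most 0.138 FPKM in the rest. *Itgal*, the α chain that lets lymphocytes bind ICAM proteins, was at 1.77 and 0.668 FPKM in replicates 2 and 3 and at most 0.123 FPKM in the rest. *Itga4*, which binds VCAM1 with *Itgb1*, was by contrast highest in replicate 3, at 2.05 FPKM, then at 0.653 FPKM in replicate 2. *Itgae*, which binds E-cadherin with *Itgb7*, was the most even, at 0.0830, 1.39 and 0.474 FPKM and at 0.368 and 0.327 FPKM.

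Behind the *Itgb2* values stood about 1.03 fragments in replicate 1, 430 in replicate 2, 281 in replicate 3, 2.11 in replicate 4 and 28.2 in replicate 5. The values in replicates 1 and 4 thus rest on a few fragments, and a fold against them is not given. Summed over the 7 genes, the leukocyte integrins reached 0.423, 25.8 and 10.46 FPKM in replicates 1, 2 and 3, but only 0.743 and 1.66 FPKM in the 2 libraries labelled *Brca1* knockout.

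Immune cell markers lay in the same libraries. The pan-leukocyte gene *Ptprc* was at 0.0603, 4.93 and 2.69 FPKM in replicates 1, 2 and 3 and at 0.119 and 0.183 FPKM in replicates 4 and 5. Replicates 2 and 3 were the highest pair for 8 of the 9 immune markers, against 14.2% of all genes above 0 in any library. The same held for 5 of 5 genes of leukocyte integrin activation, among them *Fermt3*, the kindlin of blood cells. *Lyz2*, a lysozyme gene of myeloid cells and the most abundant immune marker, was at 213 FPKM in replicate 2 and 28.7 FPKM in replicate 3. The macrophage gene *Adgre1* was at 5.64 and 0.535 FPKM there, while the B cell gene *Cd79a* went the other way, at 0.507 and 7.71 FPKM. The T cell gene *Cd3e* was at 0 in replicates 1 and 4, and *Adgre1* was at 0 in replicate 1. The methods deplete hematopoietic and endothelial cells from gland suspensions before sorting, without naming the bulk libraries. How much of each leukocyte integrin value came from remaining immune cells was not tested.

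**Figure D3:**
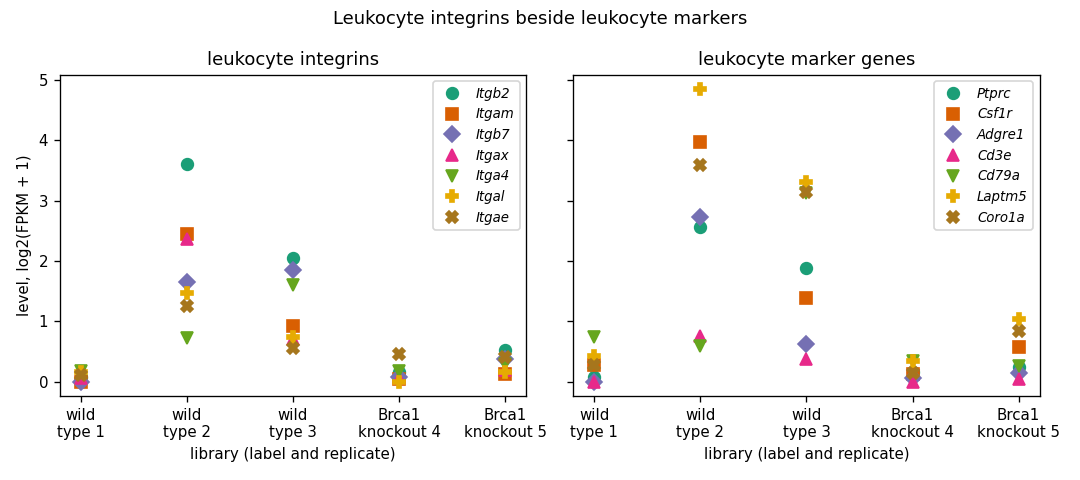
Level in log2(FPKM + 1) on the vertical axis against the 5 libraries on the horizontal axis, with a symbol for each leukocyte integrin (left) and each of a set of immune marker genes (right). Replicates 2 and 3 stand above replicates 1, 4 and 5 for all 7 leukocyte integrins and for most of the markers.

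The difference between epithelial and leukocyte integrin medians within a library was 3.87, 2.75 and 3.93 in replicates 1, 2 and 3 and 3.92 and 3.89 in replicates 4 and 5, in log2(FPKM + 1). Its mean was 3.67 ± 0.52 (SD, n = 5), and in this scale replicate 2 alone lay well below the rest. The leukocyte median itself was 0.0791, 1.64 and 0.920 in replicates 1, 2 and 3 and 0.0842 and 0.296 in replicates 4 and 5. With a pseudocount of 0.1 the mean difference was 5.36 ± 1.42, so its spread between libraries depends on the pseudocount. The direction follows from how the lists were drawn up, so it is given as a description. *Itgb1* exceeded *Itgb2* by 4.79 ± 1.31, *Itgb4* exceeded *Itgb2* by 3.15 ± 1.39, *Itgb1* exceeded *Itgb7* by 5.28 ± 0.63 and *Itga6* exceeded *Itgal* by 5.47 ± 0.41, each in 5 of 5 libraries. *Itgav* exceeded *Itgam* by 4.49 ± 1.41, also in 5 of 5. In all, 14 pairs of chains were compared, and 10 kept a single sign in all 5 libraries. For those 10 the exact sign-flip permutation test gave p = 0.0625, two-sided, the smallest p that 5 libraries allow (Benjamini-Hochberg over the 14 pairs, 0.0875), so no pair could pass a threshold of 0.05.

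Promoter sequences are shown for *Itgav* with *Itgam* and for *Itgb1* with *Itgb7*, the 2 pairs of the contrast above in which both genes had a window. The windows run from 250 bases before to 50 bases after the gene's start, from RefSeq on GRCm38.p6, and 23 of the 35 members had one. Capitals mark each GAGGAA, the core of sites bound by the myeloid and B cell factor PU.1, or TTCCTC, the same letters on the other strand. The windows are *Itgam* (chr7:128062390-128062689), *Itgb1* (chr8:128685404-128685703) and *Itgav* (chr2:83724147-83724446) on the plus strand and *Itgb7* (chr15:102231886-102232185) on the minus strand.
Itgam: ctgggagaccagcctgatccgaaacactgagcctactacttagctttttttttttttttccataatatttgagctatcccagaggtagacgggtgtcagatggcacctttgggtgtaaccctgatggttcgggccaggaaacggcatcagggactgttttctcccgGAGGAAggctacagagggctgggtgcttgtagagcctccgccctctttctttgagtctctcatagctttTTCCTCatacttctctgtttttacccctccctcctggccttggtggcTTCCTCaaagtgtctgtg
Itgb7: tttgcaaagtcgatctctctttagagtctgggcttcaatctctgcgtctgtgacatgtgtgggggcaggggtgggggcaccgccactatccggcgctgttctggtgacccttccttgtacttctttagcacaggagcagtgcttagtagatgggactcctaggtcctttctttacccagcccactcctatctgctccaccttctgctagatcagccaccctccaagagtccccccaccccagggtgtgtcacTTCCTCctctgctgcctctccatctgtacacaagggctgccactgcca
Itgb1: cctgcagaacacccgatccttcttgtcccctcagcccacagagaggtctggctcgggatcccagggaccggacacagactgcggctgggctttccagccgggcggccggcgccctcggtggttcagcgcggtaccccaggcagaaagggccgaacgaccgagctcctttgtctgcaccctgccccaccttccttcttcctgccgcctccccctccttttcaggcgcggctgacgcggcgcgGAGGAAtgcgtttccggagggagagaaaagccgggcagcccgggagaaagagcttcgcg
Itgav: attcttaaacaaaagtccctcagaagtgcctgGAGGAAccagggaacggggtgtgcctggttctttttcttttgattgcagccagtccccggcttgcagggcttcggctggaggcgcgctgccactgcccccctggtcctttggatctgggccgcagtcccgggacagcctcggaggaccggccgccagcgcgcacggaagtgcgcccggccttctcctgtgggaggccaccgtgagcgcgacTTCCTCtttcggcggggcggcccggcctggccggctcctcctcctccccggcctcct

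The *Itgam* window holds 3 of these matches, the *Itgb7* window 1, the *Itgb1* window 1 and the *Itgav* window 2. The 23 members have 26 windows, since *Itga3*, *Itgb6* and *Lamb3* have a second start, and 14 of 26 windows hold at least 1 match, against 28.3% of 32851 promoter windows of the same length. By list these were 2 of 4 windows of leukocyte integrins, 4 of 9 of epithelial integrins, 3 of 7 of other integrins and 5 of 6 of laminin chains. With only the first window of each gene, 12 of 23 hold a match, 2 of 7 for epithelial integrins, since *Itga3* and *Itgb6* match in the second window only. A match describes letters in a window and is not a bound site.

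*Itgb3* had the largest SD between libraries of the 35 members in log2(FPKM + 1), 1.93, while with a pseudocount of 0.1 *Itgb2* was ahead with an SD of 2.64 against 2.39 for *Itgb3*. *Itgb3* (ENSMUSG00000020689, chr11:104608000-104670476, plus strand), which encodes CD61 and pairs with *Itgav* as a vitronectin receptor, was at 0.596, 0.769 and 34.9 FPKM in replicates 1, 2 and 3 and at 1.72 and 0.631 FPKM in replicates 4 and 5. The value of replicate 3 was 20.2 times that of the next library, and it rested on about 6130 fragments against at most 77.7 elsewhere. By Dixon's test, *Itgb3* was the 1 of 22 tested members with a library apart from the other 4, against 13% of all genes tested. It averaged under 1 FPKM in those 4 libraries and entered the tested genes only through replicate 3, so this count is a description. With it, *Itgb3* took 19.0% of the β chain FPKM in replicate 3 and 0.537% to 1.79% in the other libraries. *Itgb5*, the alternative partner of *Itgav*, exceeded *Itgb3* by 2.45 ± 1.55 in log2(FPKM + 1), in 4 of 5 libraries, and replicate 3 was the exception. *Itgb3* and *Itgav* were thus both highest in replicate 3.

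CD61 is widely used as a surface marker of luminal progenitors, and *Itgb3* also marks platelets, megakaryocytes and endothelium, so the marker genes of these cells were read beside it. The progenitor transcription factor gene *Elf5* was at 338, 258 and 102 FPKM in replicates 1, 2 and 3 and at 244 and 288 FPKM in replicates 4 and 5, lowest where *Itgb3* was highest. The progenitor receptor gene *Kit* was at 33.4, 25.1 and 39.3 FPKM and at 47.5 and 44.0 FPKM. The other progenitor markers were highest in replicate 3, *Aldh1a3* at 17.4 FPKM against 2.39 to 9.88 and *Cd14* at 387 FPKM against 79.6 to 349.9, so the 4 markers did not share a direction. The mature luminal genes *Prlr*, the prolactin receptor, and *Pgr*, the progesterone receptor, were at 148 and 27.1 FPKM in replicate 3 and at most 10.3 and 0.714 FPKM in the rest.

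The platelet partner of *Itgb3*, *Itga2b*, was at 1.02, 0.535 and 1.06 FPKM in replicates 1, 2 and 3 and at 1.15 and 0.788 FPKM in replicates 4 and 5, so it was not raised in replicate 3. The platelet list summed to 2.14 FPKM in replicate 3 and to 33.2 FPKM in replicate 2, where *Pf4* alone was at 31.7 FPKM, with *Gp9* at 0 in every library except replicate 3, where it was at 0.149 FPKM. The endothelial list summed to 2.37, 9.22 and 22.9 FPKM in replicates 1, 2 and 3 and to 1.76 and 0.771 FPKM in replicates 4 and 5. Of its 6 genes, 5 were highest in replicate 3, among them *Vwf*, the most abundant, at 15.4 FPKM and *Pecam1* at 3.19 FPKM. The endothelial cadherin gene *Cdh5* was at 1.75 FPKM there and at 2.004 FPKM in replicate 2. The part in the *Itgb3* value of mature luminal cells, or of endothelial cells left after their depletion, was not tested.

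**Figure D4:**
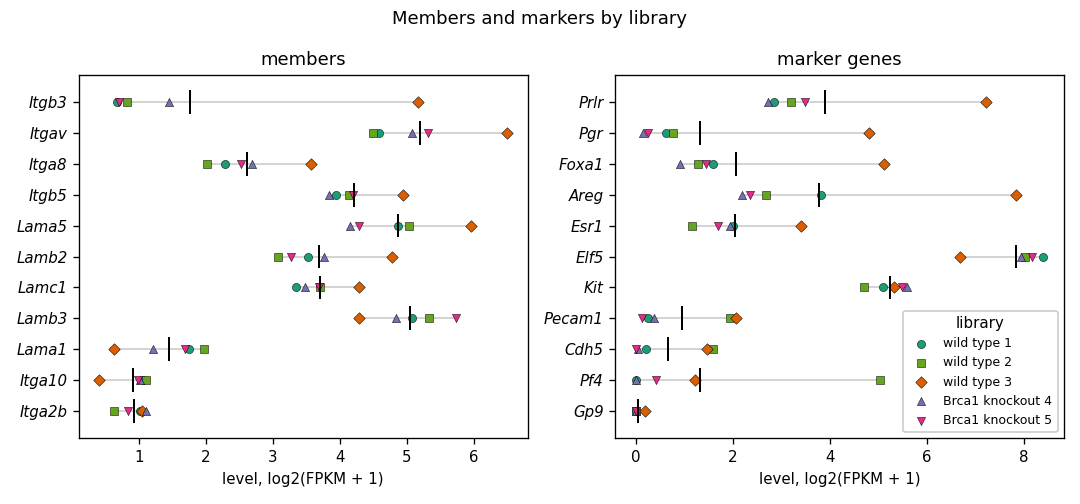
Selected members (left) and marker genes (right) in log2(FPKM + 1), with a symbol for each of the 5 libraries and a black bar at the mean. Replicate 3 lies far to the right for *Itgb3* (34.9 FPKM) as for *Prlr*, *Pgr*, *Foxa1* and *Areg*. It lies to the left for *Elf5* and *Itga10*. Of the luminal progenitor markers, only *Elf5* and *Kit* are drawn. *Aldh1a3* (17.4 FPKM), *Cd14* (387 FPKM) and the endothelial gene *Vwf* (15.4 FPKM) were highest in replicate 3 and are not drawn.

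Most members had their highest value in replicates 2 or 3. Of the 22 members with a mean of at least 1 FPKM, 9 were highest in replicate 2 and 11 in replicate 3. Together these were 20 of 22, against 16% and 18.5% of all genes tested. Among the 20, *Itgb2*, *Itgam*, *Itgb7* and *Itgb3* passed the filter only through replicates 2 or 3. The filter thus fixed where they were highest, and the count is a description. Replicate 3 was the lowest library for 2 of the 22, *Lamb3* and *Lama1*, but for 51.9% of all genes. With median-of-ratios scaling, which moved the median of replicate 3 by 0.185 in log2(FPKM + 1), and with quantile normalization, which moved it by 0.168, 20 of 22 were again highest in replicates 2 or 3, while the share of all genes became 47.1% and 41.9%. The 2 others were *Itgb8* and *Lamb3*, both highest in replicate 5. Among the 19 members averaging 1 FPKM or more under each label, 17 were highest in replicates 2 or 3, against 31.98% of all such genes. *Itgb3* is in this subset only through replicate 3, so this count too is a description.

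Of the laminins, the α chain genes were led by *Lama5*. *Lama5* (ENSMUSG00000015647, chr2:180176373-180225859, minus strand), the broadly expressed epithelial α chain, was at 28.3, 31.7 and 61.1 FPKM in replicates 1, 2 and 3 and at 16.8 and 18.5 FPKM in replicates 4 and 5. Both libraries labelled *Brca1* knockout lay below all 3 labelled wild type, and replicate 3 was highest. It took 77.5% ± 8.70 of the α chain FPKM (SD, n = 5), with a range of 69.6% to 89.9%.

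*Lama4*, an α chain of vessels and mesenchyme, was at 3.16, 6.54 and 3.68 FPKM in replicates 1, 2 and 3 and at 5.69 and 5.03 FPKM in replicates 4 and 5. *Lama1*, an α chain of embryonic and some epithelial basement membranes, was at 2.35, 2.91 and 0.545 FPKM and at 1.31 and 2.205 FPKM, lowest in replicate 3. *Lama5* exceeded *Lama4* by 2.35 ± 0.93 in log2(FPKM + 1) in 5 of 5 libraries. *Lama2*, the α chain of muscle and stromal basement membranes, was at 0.960 and 1.28 FPKM in replicates 2 and 3 and at most 0.213 FPKM elsewhere.

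The β chains differed by library. *Lamb3* (ENSMUSG00000026639, chr1:193207699-193343878, plus strand), the β chain of the hemidesmosomal laminin, was at 32.8, 39.3 and 18.5 FPKM in replicates 1, 2 and 3 and at 27.5 and 52.4 FPKM in replicates 4 and 5. *Lamb2* was at 10.51, 7.42 and 26.5 FPKM and at 12.6 and 8.62 FPKM, so that replicate 3, lowest for *Lamb3*, was highest for *Lamb2*. *Lamb3* took 37.5% of the β chain FPKM in replicate 3 and 64.7% to 79.9% in the other libraries, and *Lamb2* took 53.9% there and 13.01% to 29.6% elsewhere. *Lamb1*, the β chain found in most early and stromal laminins, was at 2.77, 10.2 and 4.25 FPKM and at 2.40 and 4.52 FPKM, highest in replicate 2. *Lamb3* exceeded *Lamb1* by 2.65 ± 0.72 in 5 of 5 libraries, while *Lamb1* minus *Lamb2* was -1.28 ± 1.11, with *Lamb1* higher only in replicate 2.

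*Lama3*, the α chain that joins *Lamb3* in the hemidesmosomal laminin, was low at 0.266, 0.658 and 1.36 FPKM in replicates 1, 2 and 3 and at 0.351 and 0.191 FPKM in replicates 4 and 5. About 17.4 to 437 fragments stood behind these values. The 2 partner chains thus lay far apart in level, and replicate 3 was the highest library for *Lama3* and the lowest for *Lamb3*. *Lama3* minus *Lama1* was -0.85 ± 0.86 in log2(FPKM + 1), and *Lama3* was higher only in replicate 3 (exact sign-flip permutation test, two-sided, p = 0.125). Among γ chains, *Lamc1*, which is part of most laminins, was at 9.20, 12.0 and 18.4 FPKM and at 10.1 and 11.8 FPKM and took 99.1% ± 0.989 of the FPKM of *Lamc1* and *Lamc3*. *Lamc3* did not pass 0.290 FPKM.

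Partner genes of these receptors were counted from separate lists, beside 40.6% of all genes at 1 FPKM or more in each library. Of 4 hemidesmosome genes, 3 were at 1 FPKM or more in each library: *Cd151*, a tetraspanin bound to laminin receptors, at 40.7 to 57.2 FPKM, the plectin gene *Plec* at 16.9 to 47.3 FPKM and the dystonin gene *Dst* at 10.6 to 25.04 FPKM. The collagen gene *Col17a1*, a transmembrane hemidesmosome component, was at 0.118 to 0.737 FPKM. Of 20 focal adhesion genes, 16 were at 1 FPKM or more in each library, the most abundant being *Actn4*, an actin cross-linker, at 209.5 to 292 FPKM. The kindlin gene *Fermt2* was at 40.3 to 53.3 FPKM and the epithelial kindlin gene *Fermt1* at 0.873 to 4.87 FPKM.

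Of 8 basement membrane genes, 4 were at 1 FPKM or more in each library, against 40.6% of all genes. Replicates 2 and 3 were the highest pair for 4 of the 8, against 14.2% of all genes above 0 in any library. The dystroglycan gene *Dag1*, a laminin receptor, was at 31.8, 40.6 and 70.2 FPKM in replicates 1, 2 and 3 and at 42.3 and 45.8 FPKM in replicates 4 and 5. The nidogen gene *Nid1*, which links laminin to collagen, was at 0.0257, 2.60 and 2.71 FPKM and at 0.0762 and 0.384 FPKM, and replicates 2 and 3, the libraries with the highest fibroblast list, stood above the rest. *Dcn*, a proteoglycan gene of fibroblasts, was at 0.445, 10.3 and 51.3 FPKM and at 0.560 and 1.22 FPKM, and the collagen gene *Col3a1*, which was above *Dcn* except in replicate 3, was at 0.923, 36.9 and 9.19 FPKM and at 1.33 and 5.24 FPKM.

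Whether the members differed between the labels was tested with limma on log2(FPKM + 1) over the 11481 genes. At a Benjamini-Hochberg adjusted p of 0.05, 0 of 22 members were called in either direction, against 0% of all genes tested, and the smallest adjusted p of any gene was 0.924. At an unadjusted p under 0.05 there were 2 of 22 members and 372 of all genes. The mean was lower in the libraries labelled *Brca1* knockout for 17 of 22 members, with a median difference of -0.23, beside 3962 of 11481 genes and a median of 0.11. A subset taken after seeing the data held the 19 members averaging 1 FPKM or more under each label. The mean was lower for 14 of these, with a median of -0.11, beside 3413 of 10734 genes and a median of 0.12. *Itgb3*, which was among the 14, passed under the wild type label only through replicate 3. With 3 libraries against 2, and replicates 2 and 3 both labelled wild type, label and library cannot be told apart.

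The 2 members with an unadjusted p under 0.05 were *Lama5*, which was -1.07 in log2(FPKM + 1) in *Brca1* knockout relative to wild type (SE 0.36, limma unadjusted p = 0.029, adjusted p = 0.924), and *Itgb8*, at 0.57 (SE 0.20, limma unadjusted p = 0.033, adjusted p = 0.924). The values of the 2 labels did not overlap for 1 of 22 members in the higher direction, *Itgb8*, against 17.5% of all genes tested. They did not overlap for 2 of 22 in the lower direction, *Itga5* (-0.85, SE 0.41, and -0.50 without replicate 2) and *Lama5*, against 5.77% of all genes tested. Among the abundant receptor chains, *Itgb1* was at -0.26 (SE 0.24), *Itga6* at -0.10 (SE 0.28), *Itga3* at -0.47 (SE 0.35) and *Itgb5* at -0.32 (SE 0.35). With each library left out in turn, *Itgb1* ran from -0.43 to -0.14, *Itga3* from -0.75 to -0.22 and *Itgb5* from -0.52 to -0.0201. *Itgav* gave -0.000437 with all libraries and 0.65 without replicate 3, and *Itgb3* gave -1.15 (SE 1.45) with all libraries and 0.33 without replicate 3.

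The 3 leukocyte integrins in the fit had entered it only through replicates 2 and 3, both labelled wild type, so a lower mean under the other label followed from the filter. *Itgb2* was at -1.57 (SE 1.02), at -0.72 without replicate 2 and at -2.48 without replicate 1, and the values of all 3 overlapped between labels with replicate 1 as low as replicates 4 and 5 or lower. Of the 13 members under the filter, 11 had a lower mean under the *Brca1* knockout label, against 64.6% of all genes under it and above 0 in any library. In the deposited scale only *Itga1*, 1 of 13 against 8.04%, was below without overlap and reached 0.2, the smallest p that an exact two-sided permutation test of 3 against 2 allows. Its lowest wild type-labelled value, 0.0779 FPKM in replicate 1, rested on about 5.28 fragments beside 0.0771 FPKM in replicate 4, and with quantile normalization p was 0.4 for *Itga1* and 0.2 for *Itgal* instead. Of the partner lists, 0 of 18 focal adhesion genes, 0 of 3 hemidesmosome genes, 0 of 6 basement membrane genes and 0 of 1 leukocyte integrin activation gene were called by limma.

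**Figure D5:**
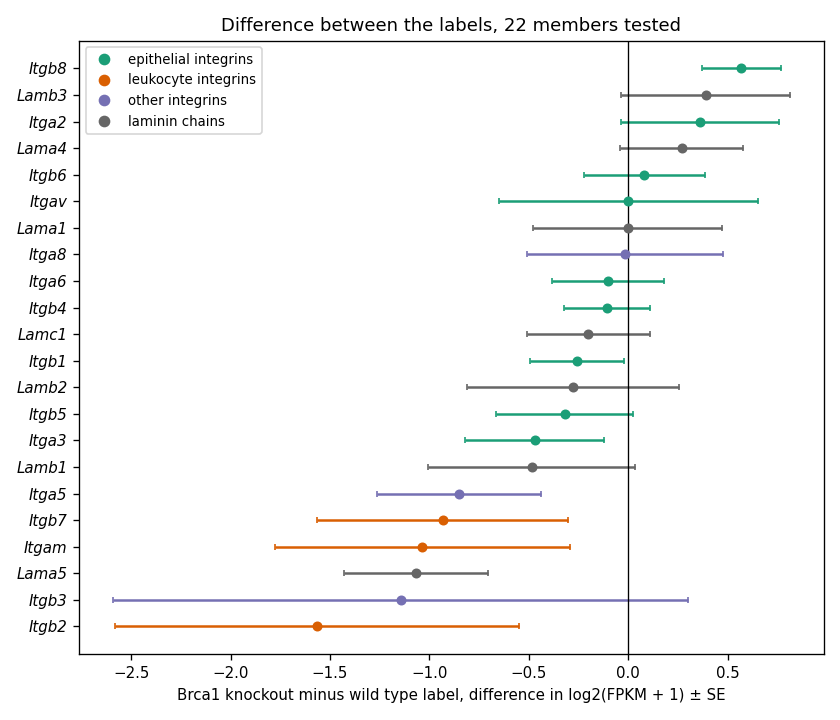
Difference between the labels for the 22 tested members, as *Brca1* knockout minus wild type in log2(FPKM + 1), with a bar of 1 SE from limma on each side. *Lama5* (-1.07) and *Itgb8* (0.57) lie farthest from 0 relative to their SE, and 0 of 22 pass an adjusted p of 0.05.

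Some of these values can hold reads of a neighbouring gene. In the GENCODE annotation of mm10, *Itgam* shares 3450 exonic bases with the gene model *Gm49368* on the same strand, *Itga10* shares 1739 with *Gm42957* and *Itga1* shares 685 with *Gm49395*. *Itga4*, *Itgav*, *Itgb4*, *Itga7*, *Itga8*, *Lama2*, *Lama3* and *Lamc3* overlap a gene on the other strand by 9 to 1124 exonic bases. The library kit does not keep strand, so reads of such partners cannot be told apart.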

How the data were processed

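Total RNA libraries of sorted luminal cells were made with a kit that does not keep strand and sequenced as paired ends. According to the submitters' processing notes, the authors trimmed reads with Trimmomatic 0.35, aligned them to mm10 with TopHat2 2.0.13 (the methods name another TopHat release) and deposited FPKM values per gene from Cufflinks 2.2.1. The annotation used is not given in the sources used here. The table has 24346 rows, of which 27 carry a date in place of a gene name and were left out.

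FPKM was tested as log2(FPKM + 1), so folds of low genes are understated. The 11481 genes averaging 1 FPKM or more entered limma 3.58.1 (R 4.3.3) with a trended variance, wild type against *Brca1* knockout labels without covariates, and Benjamini-Hochberg adjustment over all of them. Low members had an exact permutation test and pairs of chains an exact sign-flip permutation test, both two-sided (numpy 2.4.6, pandas 2.3.3). The limma fit was checked on simulated data, and the 2 permutation tests on constructed values with known answers. Alternatives were a pseudocount of 0.1, other filters, no trend, median-of-ratios and quantile scaling, list means, and each library left out. Members with a mean of at least 1 FPKM are named singly. Of the others, some are named singly and the rest are given by range. Marker genes are named where they define a cell type, partner a member or lead their list. Members and lists were chosen with earlier results of these data known. Nothing states that libraries came from separate animals, so p-values measure only the spread between these samples, which may be technical. Positions are from GENCODE release 21 for mouse. Depths were estimated from 131 to 197 of 873 long single-transcript genes per library and cover counting error only; FPKM was not turned back into counts.

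The values of 1 immune marker are not reported here singly. Marker lists not described elsewhere had summed FPKM of 7120, 6364, 10367, 7281 and 6449 (luminal epithelium), 526, 643, 546, 463 and 414 (luminal progenitor), 73.8, 139, 13.5, 44.1 and 66.6 (basal), 14.0, 11.4, 19.8, 18.3 and 17.7 (pericyte) and at most 0.198 (adipocyte) in replicates 1 to 5.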

Additional observations from a re-analysis of the deposited data

Results flagged for a closer look

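Among the 35 members, in 3 genes the highest or lowest library was set off from the other 4 by Dixon's test at the 95% level, where chance gives about 1 in 20. Of the 22 members averaging 1 FPKM or more, 1 did so, *Itgb3*, against 13% of all such genes. It averaged under 1 FPKM without replicate 3, the library set off, so it is among the 22 only through that library, and the 2 others lay under this filter. *Itgb3* was highest in replicate 3, at 5.16 in log2(FPKM + 1). *Itgax* was highest in replicate 2, at 2.36, where replicate 3 was next. *Itga10*, a collagen-binding α chain, was lowest in replicate 3, at 0.41. This was 0.324 FPKM, where the other libraries were at 0.973 to 1.15 FPKM. Over all genes tested, replicate 3 stood apart as highest for 3.16% and as lowest for 7.39%, and replicate 2 as highest for 0.531%. The causes were not tested.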

How the results depend on the processing

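No paired analysis was possible because the 2 labels share no replicate numbers. No member was called by limma under any alternative run. Leaving out each library in turn gave 0 to 18 called genes (18 without replicate 4, 4 without replicate 5, 2 without replicate 1), 1 to 4 members above and 2 to 8 members below without overlap (4 above without replicate 3, 2 without replicate 2 or 4, and 8 and 7 below without replicates 1 and 5), where 23.3% to 33.2% of all genes lay above and 8.92% to 15.6% below. Without replicate 4 or 5 the *Brca1* knockout label has 1 library, assumed to vary like the wild type-labelled ones, so these calls rest on 1 value. The label difference changed sign when libraries were left out for *Itgb6* (-0.15 to 0.26), *Lama1* (-0.41 to 0.26), *Itga6* (-0.29 to 0.11), *Itga8* (-0.32 to 0.45), *Itgav* (-0.35 to 0.65), *Itgb3* (-1.92 to 0.33), *Itgb4* (-0.32 to 0.11), *Lamb2* (-0.64 to 0.22), *Lamb3* (-0.0636 to 0.84), *Lamc1* (-0.41 to 0.0506), *Itgae* (-0.48 to 0.0930), *Itga2b* (-0.0590 to 0.21) and *Itga10* (-0.0875 to 0.26). With a pseudocount of 0.1 it changed sign for *Itga8* (0.00771), *Itgav* (0.00621) and *Lama1* (0.0981), with median-of-ratios scaling for *Itgb6* (-0.0151), and with quantile normalization for *Itgb6* (-0.0320) and *Lama1* (0.00427). The pseudocount of 0.1 also moved the list levels of leukocyte integrins to -1.16, other integrins to -0.50 and leukocyte integrin activation to -1.95, and the epithelial minus leukocyte difference to 5.36, since it weighs low values more. List means in place of medians gave 1.07 for other integrins, 4.18 for focal adhesion and 3.67 for hemidesmosome genes. In replicates 1, 4 and 5 only, a setting added after seeing the data, *Itgb6* minus *Itgb8* was -0.13. The other pair differences kept their direction under all alternatives run. Depth limits the low members most in replicates 1 and 4. Apart from the pseudocount, the cause of these changes was not tested.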
